A study of Mus musculus with 9 samples.

Results

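The 34 genes described here are expressed by monocytes, macrophages and other myeloid cells, and a few of them by leukocytes in general. They were taken from a list of gene symbols, and all 34 were found among the 27179 genes of the deposited table. All 34 also reached the minimum mean of 10 normalized counts that was required for testing, which 12993 genes in the table met. A normalized count is a read count divided by 1 scaling factor per library. The members were sorted by role into 7 groups: 4 subunits of the phagocyte oxidase, 4 Fc receptor genes, 4 genes for an adaptor, a kinase and phosphatases, 5 genes of lipid-associated macrophages, 2 neutrophil genes, 10 monocyte and macrophage genes, and 5 pan-leukocyte genes.

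Myeloid cells engulf microbes, immune complexes and dying cells. Fc receptors bind the constant part of antibodies and signal through adaptors that carry tyrosine motifs, which Src family kinases phosphorylate and phosphatases oppose. Engulfment can switch on the phagocyte oxidase, an enzyme that assembles from membrane and cytosolic subunits and releases superoxide. The liver holds resident macrophages, the Kupffer cells, beside monocytes and macrophages derived from them. Macrophages that take up lipid and debris in fatty or injured tissue share a programme named after the receptor encoded by Trem2.

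The study compared livers of wild-type C57BL/6J mice that received AAV8 by retro-orbital injection at 17 months of age. In every mouse the vector carried saCas9 under TBG, a promoter active in hepatocytes, and a U6-driven guide. The guide was directed at the Rosa26 locus in the control group (sgRosa26, n = 4) and at Ccnd1, the gene for cyclin D1, in the other (sgCcnd1, n = 5). The m-lobe was taken 3 weeks later, and its poly(A) RNA was sequenced in bulk. Both groups thus shared the vector and the nuclease, and there was no untreated group. The labels give neither sex nor batch. The title of the series states an interest in inflammatory signalling after loss of Ccnd1 in hepatocytes. The members were listed as genes of myeloid cells and leukocytes, in which TBG is not known to be active. They were measured in RNA of the whole lobe, so part of the reads of a member may come from other cells, hepatocytes included. In such RNA, fewer cells of a type and less RNA per cell cannot be told apart.

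In the order of the table's columns, the letters A to D name the controls and E to I the libraries with the Ccnd1 guide. Depth ranged from 10.8 to 20.2 M (mega) reads assigned to genes. Ccnd1 was at 744 ± 110 normalized counts (SD, n = 4) in sgRosa26 and 362 ± 40.6 (SD, n = 5) in sgCcnd1, a log2 change of -1.03 (limma, Benjamini-Hochberg adjusted p = 0.0116), with no overlap between groups. With 1 library left out, its log2 change was -1.11 to -0.96 and its limma adjusted p 0.0097 to 0.0852. It missed the threshold in 5 of these 9 fits, those without F, H, I, B or D. Library H stood apart: the Y-linked Ddx3y was at 2.00 normalized counts there and at 810 to 1154 in the other 8 libraries. Counts over the members are therefore also given without H. Markers of hepatocytes were abundant in every library, with Alb at 1247280 to 1677960 normalized counts.

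With limma, no member passed the threshold of 0.05 after adjustment over all genes tested, in either direction. Over all 12993 genes, limma called 1 gene lower in sgCcnd1 (0.0077%), which was Ccnd1 itself, and none higher (0%). The smallest adjusted p among members was 0.225 with limma, for Mpeg1 and Lyz2. Most members nevertheless had lower levels in sgCcnd1: 31 of 34 had a log2 change below 0, against 47.1% of all genes tested. The median log2 change was -0.48 over the members and 0.01 over all genes. At an unadjusted p under 0.05, 21 members were lower, against 5.74% of all genes, and 0 were higher, against 5.22%. The highest sgCcnd1 library lay below the lowest sgRosa26 library for 12 members, against 1.97% of all genes. For no member did the groups separate in the opposite direction, against 1.92% of all genes. The same shares of all genes apply to the counts given below for role groups and marker lists with all libraries.

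Without library H, 31 members were below 0 (47.1% of all genes), 20 were lower at an unadjusted p under 0.05 (4.28%) and 13 showed no overlap (2.29%), with a median of -0.48. Count models on the recovered reads differed from each other. The quasi-likelihood test of edgeR called 0 members after adjustment. DESeq2 called 8 lower, namely Cd52, Cd68, Clec7a, Gpnmb, Laptm5, Lyz2, Mpeg1 and Spi1, with adjusted p-values from 0.00136 to 0.0394, against 0.634% of the genes to which it gave an adjusted p. Without library H, DESeq2 called only Lyz2 and Mpeg1 among the members, against 0.228% of genes.

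**Figure D1:**
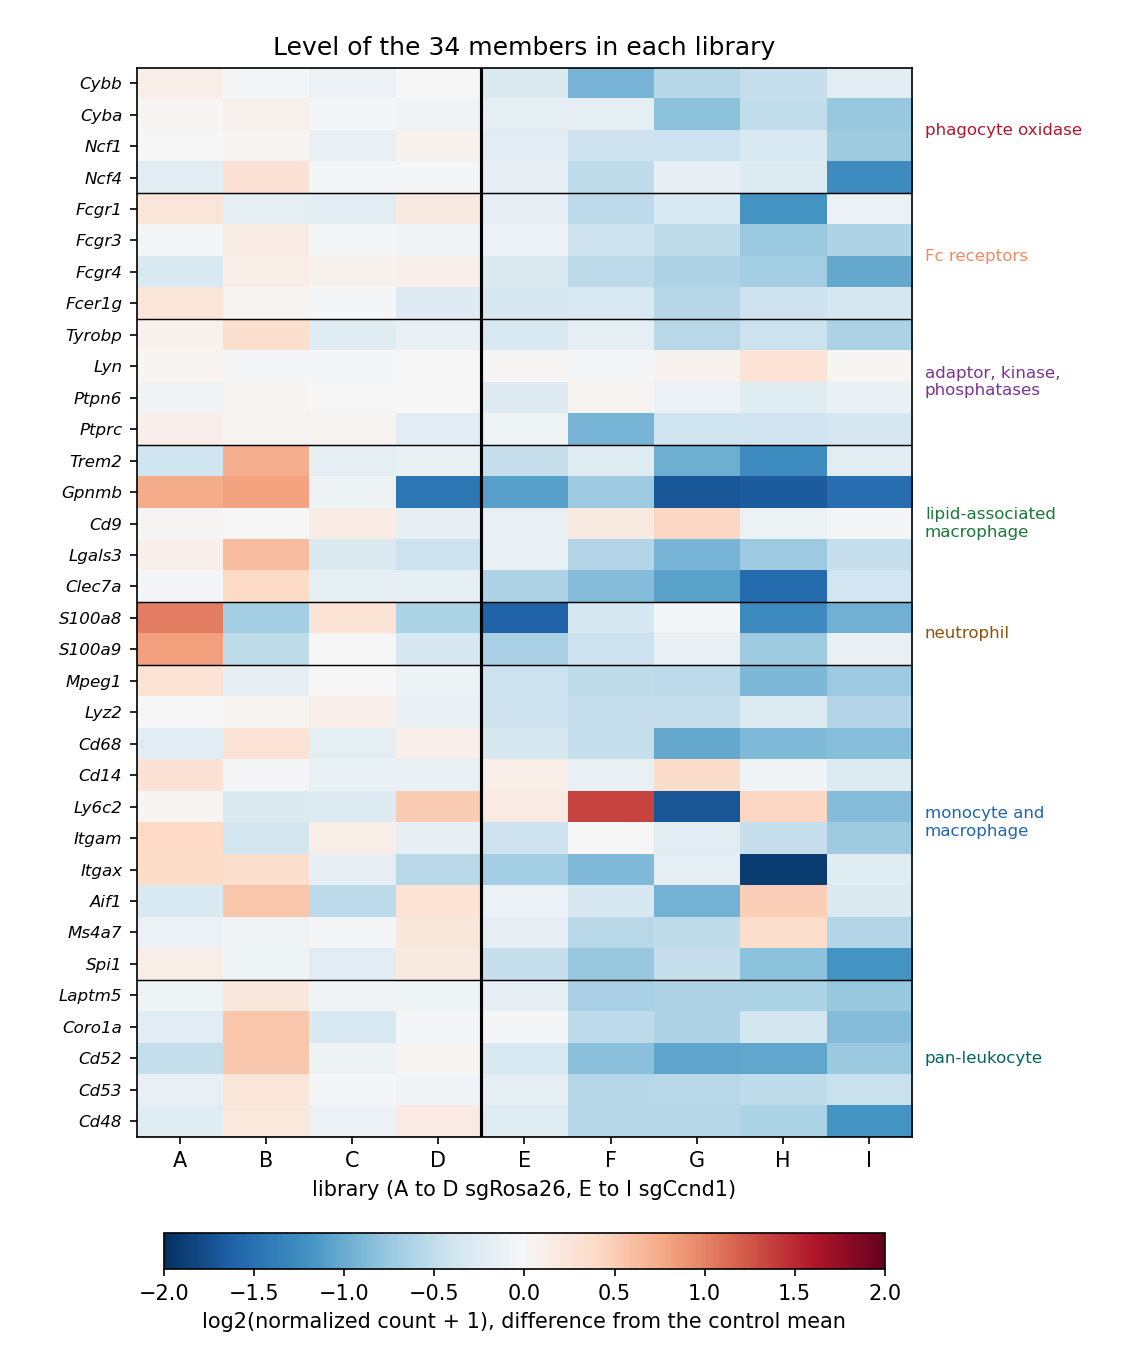
Level of each of the 34 members (rows, sorted by role) in each of the 9 libraries (columns) as log2(normalized count + 1) minus the mean of the 4 sgRosa26 libraries; red is above and blue below that mean, and the black vertical line divides the groups. Most rows are blue in E to I, while Lyn, Cd9, Cd14 and Ly6c2 are mixed.

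The phagocyte oxidase genes were all at lower levels in sgCcnd1. Their log2 changes ran from -0.49 to -0.42, with a median of -0.48, and 3 of the 4 showed no overlap between groups. Cybb and Cyba encode the membrane-bound pair that carries electrons across the membrane. Cybb was at 229, 206, 193 and 209 normalized counts in A to D and at 170, 109, 141, 152 and 179 in E to I. Every sgCcnd1 library was below every control, and F was the lowest. The log2 change was -0.49 ± 0.14 (standard error, limma adjusted p = 0.270).

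Cyba was at 133, 139, 127 and 124 normalized counts in A to D and at 114, 114, 73.4, 93.0 and 76.6 in E to I. The groups did not overlap, and within sgCcnd1 the libraries G and I were lowest while E and F were close to the controls. The resulting log2 change was -0.49 ± 0.15 (standard error, limma adjusted p = 0.297). The cytosolic organizer subunit Ncf1 had 86.7 ± 6.10 normalized counts (SD, n = 4) in sgRosa26 and 64.9 ± 8.11 (SD, n = 5) in sgCcnd1, a log2 change of -0.42 without overlap. Ncf4, a cytosolic subunit that binds phosphoinositides, went from 39.0 ± 5.96 to 28.6 ± 7.87, a log2 change of -0.47, and 2 sgCcnd1 libraries lay within the control range. Without I, which held its lowest value of 15.6, the change of Ncf4 was -0.28. Summed over the subunits, the controls held 435 to 483 normalized counts and the sgCcnd1 libraries 312 to 393.

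Other genes of the oxidase complex and its relatives were mixed. Of 8 such genes, 7 were tested, their median log2 change was -0.01, and none was called after adjustment by limma. Of the 7, 4 were below 0 and 3 above, and 2 were lower and 0 higher at an unadjusted p under 0.05. The list joins genes of blood cells with genes of most cell types, so its median does not describe phagocyte genes alone. The smallest p belonged to Rac2, the GTPase of blood cells that activates the complex. Rac2 was at 150 ± 25.6 normalized counts (SD, n = 4) in sgRosa26 and 109 ± 12.7 (SD, n = 5) in sgCcnd1, and its log2 change was -0.45 (limma adjusted p = 0.307). Rac1, which most cell types express, was at -0.01.

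The Fc receptor genes were likewise all lower in level, with log2 changes from -0.63 to -0.39 and a median of -0.47. Of the 4 genes, 3 were lower at an unadjusted p under 0.05 and 2 showed no overlap. Fcgr4 encodes an activating IgG receptor of monocytes, macrophages and neutrophils. It was at 56.6, 77.1, 73.2 and 74.8 normalized counts in A to D and at 57.2, 48.3, 45, 43.0 and 34.1 in E to I. The groups met at their edges, since control A and sgCcnd1 library E were nearly equal. Its log2 change of -0.63 ± 0.17 (standard error, limma adjusted p = 0.255) was the largest of the receptors.

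Fcgr3, an activating IgG receptor found on most myeloid cells, was at 106, 121, 106 and 104 normalized counts in A to D and at 99.9, 81.5, 76.4, 65 and 71.0 in E to I. No sgCcnd1 library reached the control range, though E came within a few counts of it. The log2 change was -0.48 ± 0.14 (standard error, limma adjusted p = 0.276). Fcer1g encodes the common gamma chain, through which these receptors signal. Its values were 135, 118, 113 and 95.2 normalized counts in A to D and 91.5, 92.2, 76.4, 86.0 and 89.4 in E to I. The sgCcnd1 libraries were close together and all below the lowest control, D. The log2 change was -0.39 ± 0.13 (standard error, limma adjusted p = 0.311), and the exact two-sided permutation p was 0.00794, the smallest that the 126 splits of 4 and 5 libraries can give.

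Fcgr1, the high-affinity IgG receptor, was at 50.1 ± 8.78 normalized counts (SD, n = 4) and 37.0 ± 9.97 (SD, n = 5), a log2 change of -0.46 with overlapping groups, and -0.28 without H. Fcgr4, Fcgr3 and Fcer1g lie within the same stretch of chromosome 1 in build GRCm38, Fcgr4 at chr1:171018926-171029761, Fcgr3 at chr1:171051169-171065915 and Fcer1g at chr1:171229572-171234349. Fcgr2b, the inhibitory IgG receptor, is not a member. It had 441 ± 52.9 and 421 ± 85.5 normalized counts, a log2 change of -0.08.

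Of 15 further genes of Fc receptor and tyrosine motif signalling, 14 were tested. Their median log2 change was -0.32, and limma called none after adjustment. At an unadjusted p under 0.05, 6 were lower (5.74% of all genes) and 0 higher (5.22%). Groups did not overlap for 3, all lower in sgCcnd1 (1.97% of all genes). The smallest p was that of Lilrb4a, an inhibitory receptor of myeloid cells. Lilrb4a was at 123, 105, 100 and 122 normalized counts in A to D and at 74.7, 57.3, 61.7, 79.0 and 83.7 in E to I, a log2 change of -0.66 (limma adjusted p = 0.227). It was the 1 gene of this list that DESeq2 called (adjusted p = 0.0154).

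The adaptor, kinase and phosphatase genes were divided. Tyrobp and Ptprc were lower in level in sgCcnd1, while Lyn and Ptpn6 differed little. The median of the 4 log2 changes was -0.28, the smallest of the 7 role groups in size, and each member's groups overlapped. Tyrobp encodes the adaptor that pairs with Trem2 and other receptors. It was at 151, 180, 121 and 130 normalized counts in A to D and at 117, 125, 97.9, 107 and 92.3 in E to I. Only F reached the range of the controls. The log2 change was -0.42 ± 0.14 (standard error, limma adjusted p = 0.334).

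Ptprc, the leukocyte common antigen and a receptor phosphatase, was at 218, 212, 212 and 175 normalized counts in A to D and at 191, 107, 154, 154 and 162 in E to I. The controls A to C were almost equal and D was lower, so that E fell inside the control range. Its log2 change was -0.43 ± 0.15 (standard error, limma adjusted p = 0.338). The Src family kinase Lyn was the most abundant member of this group, at 541, 515, 518 and 529 normalized counts in A to D and 536, 510, 549, 633 and 534 in E to I. Lyn was high in H and otherwise at the level of the controls. Its log2 change was 0.07 ± 0.08 (standard error, limma adjusted p = 0.792), and 0.02 without H. Ptpn6, a cytoplasmic phosphatase that dampens such signalling, was at 411 ± 13.5 and 374 ± 32.7 normalized counts, a log2 change of -0.14. In the annotation, 7.16% of the exon bases of Lyn and 7.48% of those of Ptpn6 overlap a gene on the other strand, and the use of strand in counting is not given in the sources used here.

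The monocyte and macrophage genes held the 2 members with the smallest p-values, and also Cd14, the member nearest to 0. Of the 10 genes, 9 had a log2 change below 0, 5 were lower at an unadjusted p under 0.05 and 4 showed no overlap, with a median of -0.40. Mpeg1 encodes perforin-2, a pore-forming protein of phagocytes. It was at 1712, 1264, 1437 and 1320 normalized counts in A to D and at 1060, 999.96, 988, 760 and 857 in E to I. All sgCcnd1 libraries were well below the lowest control, and H was the lowest of all. The log2 change was -0.62 ± 0.12 (standard error, limma adjusted p = 0.225), and the exact permutation p was 0.00794.

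Lyz2, the lysozyme of myeloid cells, was at 986, 1016, 1063 and 897 normalized counts in A to D and at 744, 717, 718, 826 and 659 in E to I. The sgCcnd1 libraries were tightly grouped below the controls, and H was their highest here. Its log2 change was -0.44 ± 0.09 (standard error, limma adjusted p = 0.225), with the same exact permutation p of 0.00794. The paralog Lyz1, with which reads could be shared, stood at no more than 6.15 normalized counts in any library.

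Spi1, which encodes the myeloid transcription factor PU.1, was at 86.1 ± 11.1 normalized counts (SD, n = 4) in sgRosa26 and 51.7 ± 10.4 (SD, n = 5) in sgCcnd1, a log2 change of -0.74 without overlap. The lysosomal glycoprotein gene Cd68 went from 153 ± 25.0 to 93.9 ± 19.9 normalized counts, a log2 change of -0.71, also without overlap. Among integrin genes, Itgax was at 61.0 ± 17.9 and 36.9 ± 15.0 normalized counts, a log2 change of -0.78 with overlapping groups. The library H held the lowest Itgax value, 15.0, and without H the change was -0.50. Itgam had 31.3 ± 7.47 and 24.0 ± 4.57 normalized counts, a log2 change of -0.36, and -0.23 without A. Its value is uncertain, because 70.0% of its exon bases also belong to Gm49368 on the same strand.

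The remaining 4 genes of this group had overlapping groups and small differences. Aif1, a calcium-binding protein of macrophages, had a log2 change of -0.24, and Ms4a7, a membrane protein of macrophages, one of -0.29. The value of Aif1 depended on single libraries: it was at -0.05 without B, -0.06 without G and -0.42 without H. Ms4a7 stayed below 0 with any library left out, at -0.45 without H and at -0.22 without I. Cd14, the co-receptor for lipopolysaccharide, was at 31.3 ± 4.71 and 31.5 ± 5.79 normalized counts, a log2 change of 0.01. Ly6c2, a surface protein of inflammatory monocytes, spread widely in sgCcnd1, from 5.87 normalized counts in G to 56.4 in F, around controls at 17.5 to 31.1. Its log2 change of -0.13 ± 0.50 (standard error) has no stable sign: it was 0.23 with edgeR and 0.21 with DESeq2. Its paralog Ly6c1 was at no more than 5.37 normalized counts in any library.

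The lipid-associated macrophage genes showed the widest range, from -1.34 to 0.06 on the log2 scale, with a median of -0.63. Of the 5 genes, 4 were below 0, 3 were lower at an unadjusted p under 0.05 and 1 showed no overlap. That one was Clec7a, which encodes dectin-1, a receptor for fungal glucans. Clec7a was at 117, 156, 103 and 104 normalized counts in A to D and at 77.0, 64.5, 55.8, 40.0 and 90.8 in E to I. The sgCcnd1 libraries all lay below the controls, although they spread more than 2-fold among themselves. The log2 change was -0.89 ± 0.22 (standard error, limma adjusted p = 0.253; DESeq2 adjusted p = 0.0221).

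Gpnmb encodes a transmembrane glycoprotein of lysosome-rich macrophages and had the largest log2 change of all members. It was at 78.7, 82.4, 43.2 and 16.5 normalized counts in A to D and at 21.3, 27.8, 13.7, 14 and 15.6 in E to I. The controls were far apart: D was at the level of the sgCcnd1 group, and A and B were several times higher. The log2 change was -1.34 ± 0.41 (standard error, limma adjusted p = 0.300; DESeq2 adjusted p = 0.0265). It was -1.82 without D and -1.07 without B.

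Lgals3, which encodes galectin-3, was at 104 ± 36.3 normalized counts (SD, n = 4) in sgRosa26 and 68.1 ± 14.4 (SD, n = 5) in sgCcnd1, a log2 change of -0.57, and the groups overlapped. It was -0.36 without B, the control with the highest value, 154. Trem2, the lipid-sensing receptor, had low counts, 13.5 to 30.7 in the controls and 7 to 15.6 in sgCcnd1. Its log2 change of -0.63 ± 0.32 (standard error, limma adjusted p = 0.490) became -0.39 without B, which held the value of 30.7. The tetraspanin gene Cd9 was far more abundant, at 602, 593, 653 and 526 normalized counts in A to D and 534, 674, 785, 552 and 583 in E to I. Its groups overlapped throughout, with a log2 change of 0.06 ± 0.12 (standard error, limma adjusted p = 0.880). The median of this role group was -0.63 with all libraries and -0.39 without B.

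Of 16 further genes reported in lipid-associated macrophages, all were tested, and the median log2 change was 0.03. At an unadjusted p under 0.05, 2 were lower and 0 higher. After adjustment limma called none, and DESeq2 called 1, Mmp12 (adjusted p = 0.0394). The smallest p was that of Ctss, a lysosomal protease of antigen-presenting cells. Ctss was at 624 ± 83.6 normalized counts (SD, n = 4) in sgRosa26 and 449 ± 82.8 (SD, n = 5) in sgCcnd1, a log2 change of -0.48 (limma adjusted p = 0.271). The other of the 2 was Mmp12, an elastase of macrophages, named after its values were seen. It was at 61.5, 77.1, 46.9 and 18.5 normalized counts in A to D and at 20.6, 23.3, 14.7, 21.0 and 25.5 in E to I, a log2 change of -1.09 (limma adjusted p = 0.307). As for Gpnmb, control D was at the level of the sgCcnd1 libraries. Many genes of this list are also expressed by hepatocytes: Apoe alone was at 197224 to 290938 normalized counts.

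The neutrophil genes S100a8 and S100a9 encode the subunits of calprotectin, and their values rested on control A. S100a8 was at 48.0, 14, 28.2 and 14.6 normalized counts in A to D and at 6.86, 17.9, 22.5, 9 and 11.4 in E to I. The groups overlapped, and A and C were the high libraries. Its log2 change was -0.84 ± 0.41 (standard error, limma adjusted p = 0.481), and -0.50 without A. S100a9 was at 56.6, 21.9, 31.9 and 25.3 normalized counts in A to D and at 19.8, 23.3, 28.4, 19.0 and 28.4 in E to I. Here only A stood out, and the other controls were within or near the range of sgCcnd1. Its log2 change was -0.42 ± 0.27 (standard error, limma adjusted p = 0.584), and -0.15 without A. The median of the pair went from -0.63 with all libraries to -0.32 without A, and neither gene was lower at an unadjusted p under 0.05.

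Most other neutrophil markers were low. Of 12 markers, 7 were under the minimum mean of 10, namely Ly6g, Cxcr2, Retnlg, Mmp8, Camp, Ltf and Ngp, and Ly6g was at 0 in 8 of the 9 libraries. The median log2 change of the 5 tested was -0.03. Csf3r, the receptor for granulocyte colony-stimulating factor, was the one marker lower at an unadjusted p under 0.05, and its groups did not overlap. It was at 81.0 ± 6.53 and 53.9 ± 10.2 normalized counts, a log2 change of -0.59 (limma adjusted p = 0.253). The granule genes Elane and Mpo had log2 changes of 0.47 and 0.48, Mmp9 was at -0.03, and the groups of all 3 overlapped. Lcn2, which encodes lipocalin-2, was the most abundant, at 373, 179, 152 and 56.3 normalized counts in A to D and 99.1, 109, 299.6, 89.0 and 121 in E to I, a log2 change of -0.27. The summed level of the 12 markers was 205 to 537 in sgRosa26 and 203 to 426 in sgCcnd1, highest in A, where Lcn2 made up most of it.

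The pan-leukocyte genes were all lower in level, and all 5 passed an unadjusted p under 0.05, with a median log2 change of -0.56. Laptm5 encodes a lysosomal membrane protein of blood cells. It was at 342, 421, 348 and 340 normalized counts in A to D and at 322, 231, 234, 232 and 214 in E to I. The groups did not overlap, but E lay just under the controls and well above F to I. The log2 change was -0.56 ± 0.12 (standard error, limma adjusted p = 0.227; DESeq2 adjusted p = 0.0221).

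Cd52, a small surface glycoprotein of leukocytes, was at 93.4, 190, 122 and 135 normalized counts in A to D and at 106, 72.5, 62.7, 63.0 and 78.1 in E to I. Library E was above control A, and the other sgCcnd1 libraries were below every control. Its log2 change was -0.80 ± 0.21 (standard error, limma adjusted p = 0.253; DESeq2 adjusted p = 0.0394). The tetraspanin gene Cd53 had no overlap, at 158 ± 19.4 and 115 ± 13.2 normalized counts and a log2 change of -0.46. Cd48, an adhesion molecule, had a log2 change of -0.64, and Coro1a, an actin regulator, one of -0.48, both with overlapping groups. Without B, the change of Coro1a was -0.30.

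**Figure D2:**
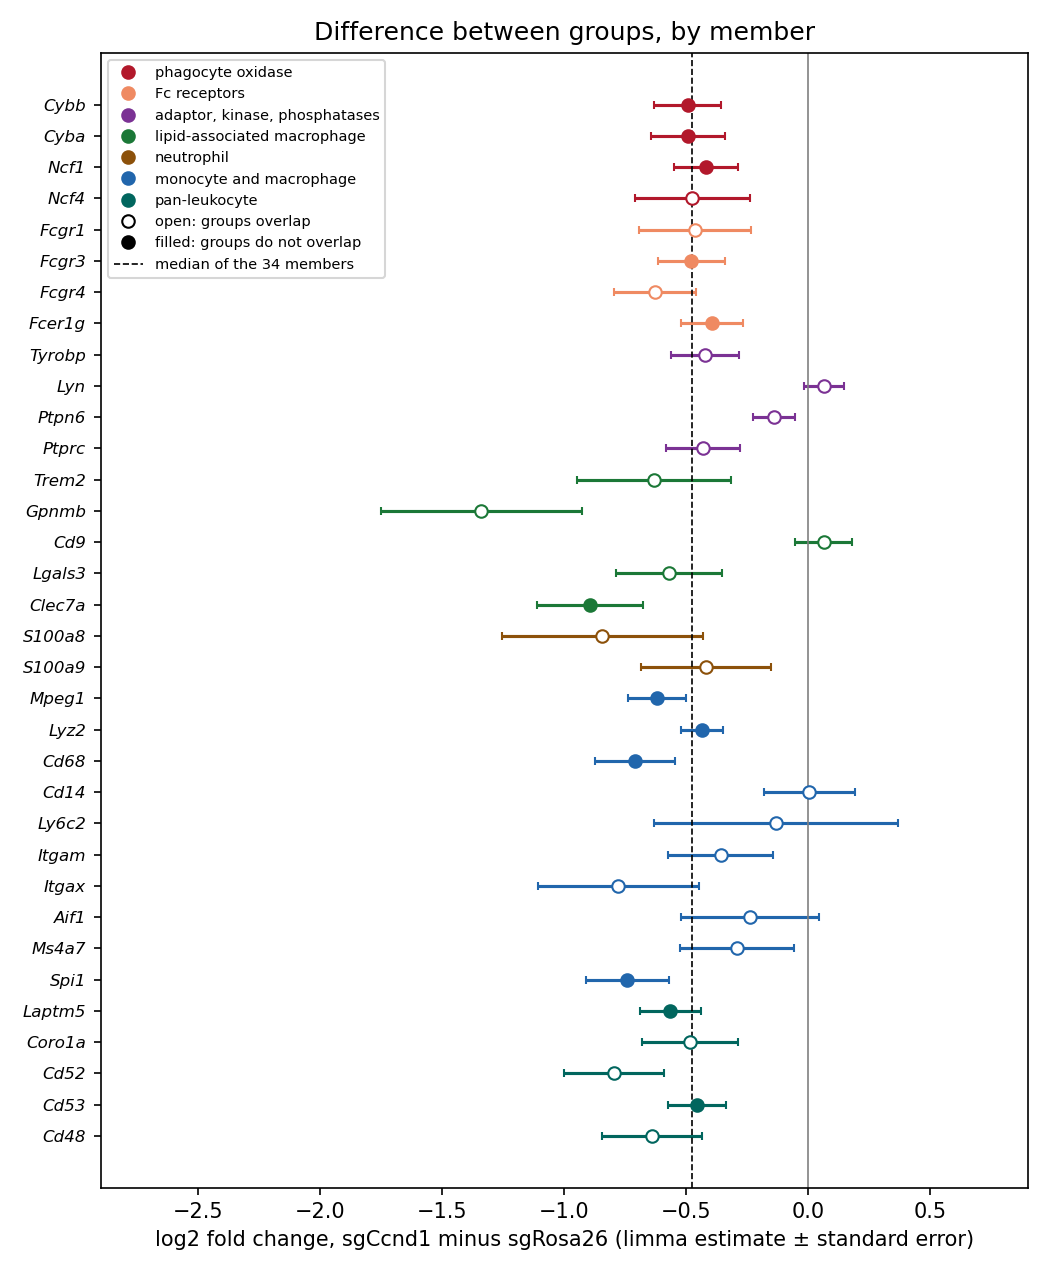
Log2 fold change (sgCcnd1 minus sgRosa26, limma estimate ± standard error, horizontal axis) of each member, coloured by role; filled points are members whose groups do not overlap, and the dashed line is the median of the members, -0.48. The points of the oxidase and Fc receptor genes lie close to that line, while the lipid-associated genes run from -1.34 to 0.06.

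Set side by side, the role groups had medians of -0.48 for the oxidase, -0.47 for the Fc receptors, -0.63 for the lipid-associated genes and -0.63 for the neutrophil pair. The differences between them were not tested. They differed in how the libraries lay. The mean log2 level over the oxidase genes, relative to the control mean, was -0.09 to 0.10 in the controls and -0.74 to -0.22 in sgCcnd1. For the Fc receptors it was -0.06 to 0.04 and -0.76 to -0.22. Neither role group overlapped. For the lipid-associated genes the controls spread from -0.47 in D to 0.51 in B, and sgCcnd1 from -1.06 in H to -0.45 in F. The neutrophil pair spread from -0.59 in B to 0.92 in A among controls and from -1.13 in E to -0.09 in G in sgCcnd1, so that the groups overlapped widely.

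**Figure D3:**
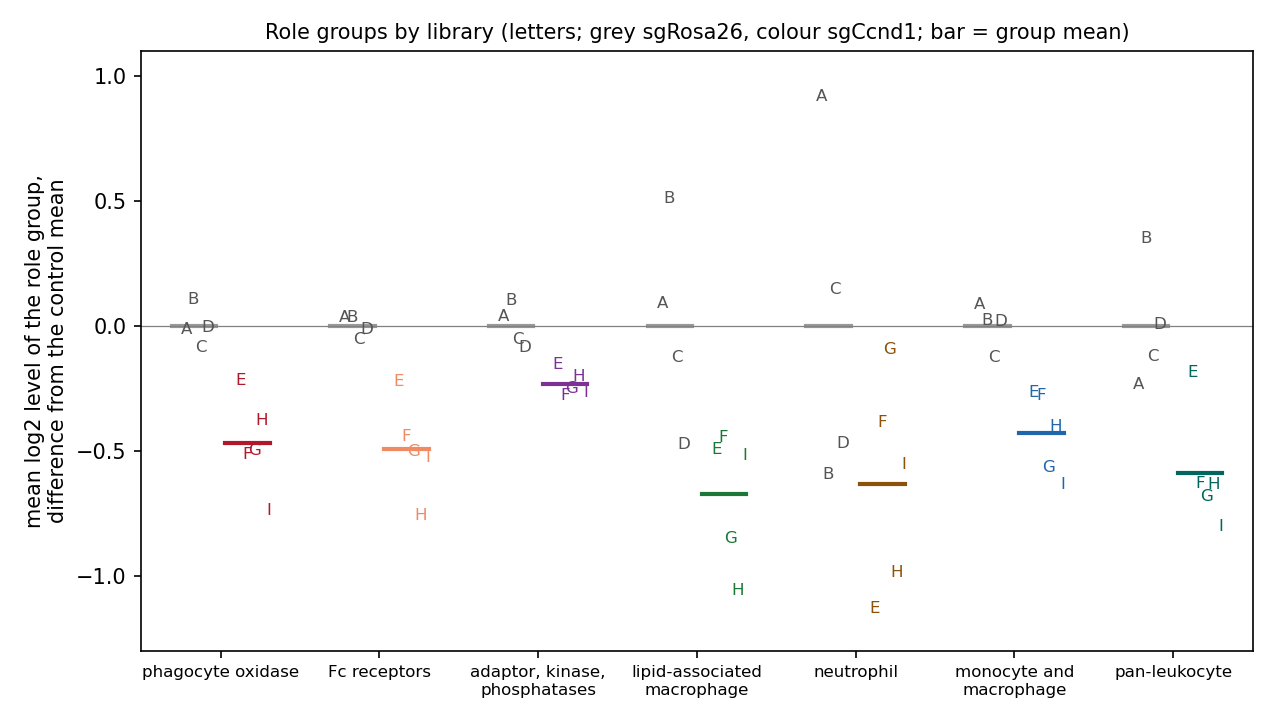
Mean log2 level of each role group in each library, as the difference from the mean of the sgRosa26 libraries (vertical axis); letters are libraries, grey for sgRosa26 and coloured for sgCcnd1, and bars are group means. The controls lie within 0.11 of 0 for the oxidase and the Fc receptors but spread from -0.59 to 0.92 for the neutrophil pair.

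Over all 34 members, this mean was 0.06 in A, 0.13 in B, -0.09 in C and -0.10 in D. The sgCcnd1 libraries E and F stood at -0.32 and -0.41, and the libraries G, H and I at -0.54, -0.58 and -0.59. Within sgCcnd1, E was nearest to the controls and held the highest value of its group for 15 members. Among all 9 libraries, B held the highest value for 17 members and A for 9. The lowest value was in I for 12 members, in G for 8 and in H for 7. The members share these libraries, so they are not independent of each other.

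Levels were also compared per length, as normalized counts per kilobase of exon. In sgRosa26 the highest was Lyz2 at 753 ± 53.1 per kilobase (SD, n = 4), followed by Cd9 at 484 ± 42.5 and Mpeg1 at 331 ± 46.0. Cd52 and Tyrobp, at 263 ± 79.0 and 258 ± 46.2 per kilobase, did not differ beyond their spread. Among the oxidase genes Cyba stood at 176 ± 9.06 per kilobase, above Cybb at 44.0 ± 3.08, Ncf1 at 30.1 ± 2.12 and Ncf4 at 26.6 ± 4.07. Among the Fc receptor genes the common gamma chain gene Fcer1g led, at 154 ± 22.1 per kilobase, and Fcgr1 was lowest at 19.4 ± 3.39. Trem2, Itgax and Gpnmb were among the 5 lowest members, at 16.8 ± 6.81, 14.1 ± 4.13 and 12.2 ± 6.93 per kilobase.

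Since Spi1 was among the members, their promoters were searched for GAGGAA, a core sequence to which PU.1 binds, on both strands. RefSeq promoter windows of build GRCm38.p6, from 250 bases before to 50 after a gene's start, were matched for 28 of the 34 members. The letters were found in 15 of 28 members (53.6%) and in 31.3% of 27025 genes. In the last 100 bases before the start they were found in 11 of 28 members (39.3%) and in 11.2% of genes. The longer GAGGAAGT, which contains the first motif, was in the windows of 4 of 28 members (14.3%) and in 3.69% of genes. TTGCNNAA, a core of the C/EBP site, was in the windows of 4 of 28 members (14.3%) and in 12.2% of genes, and in the last 100 bases of 2 of 28 (7.14%) and 3.96% of genes. There GAGGAAGT was in 2 of 28 members (7.14%) and 1.35% of genes. A match is a description of the letters and not a binding site. The last 100 bases before the start are printed for 5 members from 4 role groups that hold the core, to show where it lies, and for Mpeg1 and Lyz2, the members with the smallest p, which do not hold it there. Capitals mark GAGGAA or its reverse complement.
Fcgr4, chr1:171018826-171018925, plus strand: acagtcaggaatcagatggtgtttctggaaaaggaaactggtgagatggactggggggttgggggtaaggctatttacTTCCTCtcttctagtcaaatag
Fcgr1, chr3:96293970-96294069, minus strand: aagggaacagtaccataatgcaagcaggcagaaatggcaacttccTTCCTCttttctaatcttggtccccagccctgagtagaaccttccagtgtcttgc
Clec7a, chr6:129472786-129472885, minus strand: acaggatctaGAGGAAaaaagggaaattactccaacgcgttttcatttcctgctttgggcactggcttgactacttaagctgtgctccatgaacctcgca
Cd53, chr3:106790150-106790249, minus strand: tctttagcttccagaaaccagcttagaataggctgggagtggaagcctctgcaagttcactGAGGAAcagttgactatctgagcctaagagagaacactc
S100a8, chr3:90668971-90669070, plus strand: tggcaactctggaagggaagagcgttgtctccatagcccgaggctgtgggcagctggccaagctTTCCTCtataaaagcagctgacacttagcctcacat
Mpeg1, chr19:12460670-12460769, plus strand: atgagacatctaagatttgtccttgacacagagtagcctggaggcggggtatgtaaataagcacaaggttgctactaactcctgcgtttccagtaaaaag
Lyz2, chr10:117282273-117282372, minus strand: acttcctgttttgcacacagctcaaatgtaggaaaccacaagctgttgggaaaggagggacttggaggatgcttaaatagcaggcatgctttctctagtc

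In these stretches the first base of the core nearest to the start lay 22 bases before it in Fcgr4, 55 in Fcgr1, 90 in Clec7a, 39 in Cd53 and 36 in S100a8. In Fcgr4, Fcgr1 and S100a8 it lay on the strand opposite to the gene. The members that held the core there did not share a size of change: Clec7a was at -0.89, Cd53 at -0.46 and Ly6c2 at -0.13 on the log2 scale. Of 10 other transcription factors of myeloid cells, 1 was lower and 1 higher at an unadjusted p under 0.05, the median was -0.12, and limma called none after adjustment. The smallest p was that of Runx1, a factor of blood cell development. Runx1 was at 20.9, 28.0, 24.4 and 23.3 normalized counts in A to D and at 7.62, 14.3, 19.6, 14 and 8.52 in E to I, with a log2 change of -0.93 (limma adjusted p = 0.296).

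Markers of cell types that could hold the members were read in the same libraries. The 10 Kupffer cell markers had a median log2 change of -0.06, and their summed level was 2889 to 4114 normalized counts in sgRosa26 and 2804 to 3463 in sgCcnd1. Clec4f and Cd5l, which define these cells, were both at -0.06, and Adgre1 was at 0.00. Of the 10 markers, 7 were below 0 and 3 above. Vsig4 was at -0.25 and C1qb at -0.30, each with 4 sgCcnd1 libraries below the lowest control. Timd4 was at 0.10 and Marco at 0.11. The 2 Kupffer cell markers that were lower at an unadjusted p under 0.05 were the complement genes C1qa, at -0.35, and C1qc, at -0.29. Of 10 other monocyte markers, 7 were tested, with a median of -0.56. Among them Ccr2, the receptor that draws monocytes from the blood, was named after its values were seen: it was at 70.1 ± 21.6 and 38.2 ± 10.8 normalized counts, a log2 change of -0.86 without overlap. The difference between the Kupffer cell markers and the members was not tested.

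Of 10 T and NK cell markers, 6 were tested, namely Cd3e, Cd3g, Cd8a, Cd4, Trac and Nkg7, most of them T cell genes. All 6 were lower at an unadjusted p under 0.05, with a median log2 change of -1.24, and the groups of each overlapped. Cd3d, Gzma and the NK cell markers Klrb1c and Ncr1 were under the minimum mean. Klrb1c was at 4.61 ± 2.30 (SD, n = 4) and 4.11 ± 2.91 (SD, n = 5) normalized counts, and Ncr1 at 2.95 ± 1.81 and 3.30 ± 3.94. The summed level of the 10 markers was 109 to 291 normalized counts in sgRosa26 and 55.0 to 193 in sgCcnd1, highest in B among controls and in E within sgCcnd1. Laptm5, Cd53, Cd52, Coro1a and Cd48, which lymphocytes also express, were likewise highest in B among controls and in E within sgCcnd1. The part of T cells in the values of these members was not tested. Dendritic cell markers had a median of -0.36, with 5 of 8 tested. B and plasma cell markers had one of -0.27, with 8 of 9 tested, 7 below 0 and 1 lower at an unadjusted p under 0.05. The 1 above 0 was Xbp1, at 0.24. Their summed level was at 109% of the controls, but Xbp1 made up most of that sum. In sgRosa26 the mean sum was 4518 normalized counts, with Xbp1 at 2780, and in sgCcnd1 it was 4932, with Xbp1 at 3316. Stellate cell markers had a median of -0.35, with 7 of 8 below 0 and 3 lower at an unadjusted p under 0.05. Endothelial markers had a median of -0.06, red cell markers 0.05 and hepatocyte markers 0.02. Limma called none of the genes of these cell type lists after adjustment.

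**Figure D4:**
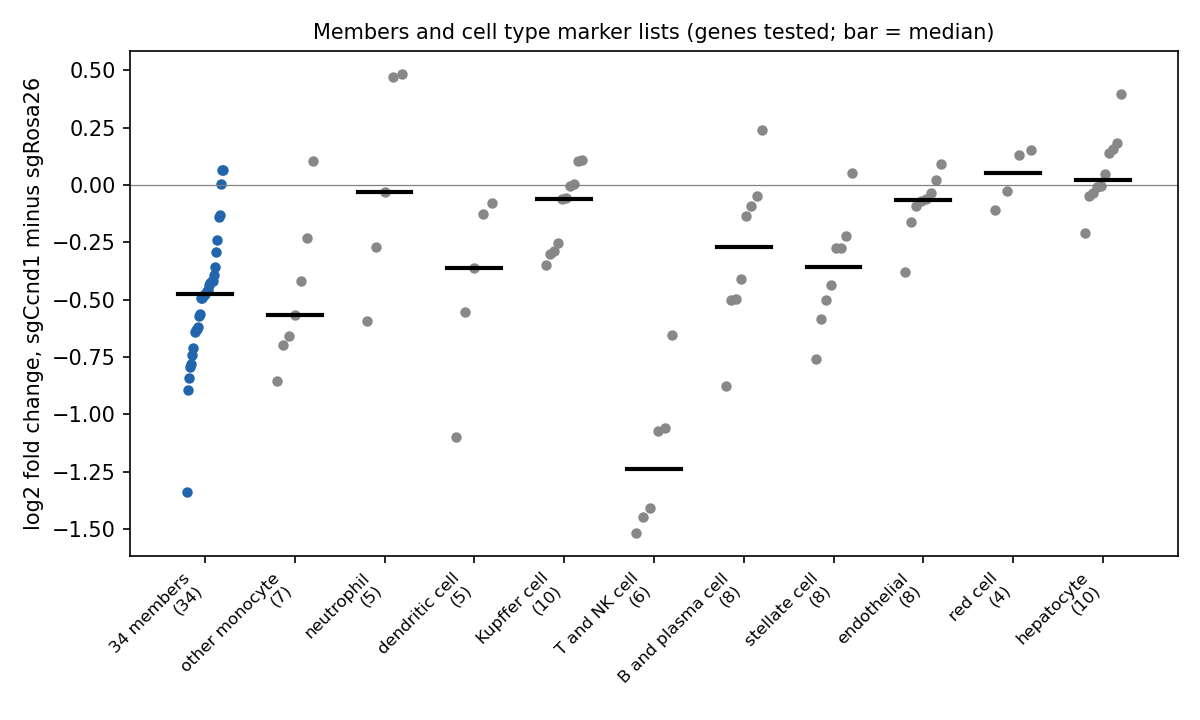
Log2 fold change (sgCcnd1 minus sgRosa26, vertical axis) of the 34 members and of the tested genes of 10 cell type marker lists, with the number tested in parentheses; each point is a gene and the bar is the median. Kupffer cell, endothelial and hepatocyte markers centre near 0, while the members centre at -0.48 and T and NK cell markers at -1.24.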

How the data were processed

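Libraries of liver poly(A) RNA came from 4 sgRosa26 and 5 sgCcnd1 mice. Per the submitters' processing notes, the tools used were Trim Galore 0.6.7, FastQC 0.74, MultiQC, HISAT2 2.2.1, featureCounts 2.0.3 and DESeq2 2.11.40.8, with builds mm10 and GRCm38; annotation and use of strand are not given in the sources used here. The deposited table holds an expression signal, normalized counts per the file headers and its name. In each library 100% of values were whole multiples of 1 number (tolerance 0.01 reads), so reads could be recovered. Rows without a symbol numbered 1319. Columns name a group but no replicate number.

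The log2(value + 1) of 12993 genes with a mean of at least 10 was tested with limma 3.58.1 in R 4.3.3 (lmFit, eBayes with trend, two-sided, no covariates), with Benjamini-Hochberg adjustment over all genes and a threshold of 0.05. Such fold changes understate those of low genes. Single values were also compared by an exact permutation test over 126 splits. edgeR 4.0.16 and DESeq2 1.42.0 were run on the recovered reads. The fits were tested on simulated data. P-values measure the spread between these libraries, and read counts cover counting error only. Exon lengths and overlaps came from GENCODE M21, promoters from RefSeq GRCm38.p6. Figures used matplotlib 3.10.9.

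The members and lists were chosen with earlier results of these data known. In each role group, values per library are given for the 2 members with the smallest p and the most abundant one, and for both neutrophil genes; of each of 4 pathway lists, the gene with the smallest p was named. A gene of one pathway list is not reported here. Alternatives numbered 21: pseudocounts of 0.1 and 10, no filter, a minimum mean of 100, quantile and 75th percentile scaling, robust eBayes, edgeR with TMM or RLE, DESeq2, each library left out, and 2 count models without library H that were chosen after seeing the data.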

Additional observations from a re-analysis of the deposited data

Results flagged for a closer look

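Within each group of each member, 68 groups in all, the highest and the lowest library were compared with the rest by Dixon's test at the 95% level, and 5 stood out, where chance gives about 1 in 20, or 3.4. In sgRosa26, library B had 121 normalized counts of Fcgr3 beside 104 to 106 in the others, and 421 of Laptm5 beside 340 to 348. Library D had 175 of Ptprc beside 212 to 218. In sgCcnd1, library E had 322 of Laptm5 beside 214 to 234 and 138 of Cd53 beside 106 to 115. These values lay with B above its group and with D and E towards the other group.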

How the results depend on the processing

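No paired analysis was possible because the table's columns carry no replicate number of the labels. The count of members called by limma or edgeR was 0 under each alternative, and 8 with DESeq2 (2 without library H). Over all genes, DESeq2 called 76 lower and 41 higher, or 25 and 16 without H; lower calls numbered 2 with quantile normalization, 0 with edgeR without H, and 0 to 2 when 1 library was left out (0 without F, H, I, B or D). Scaling to the 75th percentile put 54.6% of genes below 0, against 47.1%, and the members' median at -0.51.

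A minimum mean of 100 left 14 members, of which 12 were below 0 (40.1% of all genes), 11 lower at an unadjusted p under 0.05 (3.92%) and 7 without overlap (1.35%). Because fewer genes were left, the medians moved to 0.064 for lipid-associated genes (Cd9 alone) and -0.62 for monocyte and macrophage genes, and the Fc receptors and the neutrophil pair had no value. With each library left out in turn, the members' median was -0.55 to -0.43, 19 to 22 were lower at an unadjusted p under 0.05 (4.09% to 7.1% of all genes) and 12 to 18 did not overlap (2.29% to 4.25%), the most of both members and all genes without E.

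Signs reversed for 3 members. Ly6c2 was 0.0283 with quantile normalization, 0.23 with both edgeR scalings, 0.21 with DESeq2, and 0.16 (DESeq2) and 0.19 (edgeR) without H; it was -0.50 to 0.27 when a library was left out. Cd14 was -0.028 with 75th percentile scaling and -0.084 to 0.10 leaving out a library, and Cd9 -0.022 to 0.12. The causes were not tested. Depth limits the low members: Trem2, S100a8 and Ly6c2 had fewer than 60 normalized counts in every library.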

Other observations

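Among the controls, library D held the highest level of 6 of the 10 Kupffer cell markers (Clec4f, Cd5l, Timd4, Adgre1, C1qc and Folr2, but not C1qa, C1qb, Marco and Vsig4) and the lowest level of some members. Clec4f was at 903 normalized counts in D and at 578 to 664 in A to C, and Cd5l at 1047 beside 657 to 741. Gpnmb was at 16.5 in D beside 43.2 to 82.4, Itgax at 39.8 beside 52.6 to 76.2, and Lgals3 at 73.8 beside 81.7 to 154. Over all 34 members, D was the lowest control for 10, A and C for 9 each and B for 6, and D was the highest for 4 (Ncf1, Ly6c2, Ms4a7 and Spi1). This pattern was noticed in the values of 4 libraries and was not tested.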
